A study of Danio rerio with 75 samples.

Results

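The proteasome genes of the zebrafish were followed over brain, liver and skin of ageing males. Members were the rows of the gene table whose symbol, ignoring case, starts with psma, psmb, psmc, psmd, psme, psmf or psmg, which gave 60 of 32677 rows. The fish were males of the TüAB strain (AB crossed to Tu in the sample labels) and were sampled at 6, 12, 24, 36 and 42 months, around noon or in the early afternoon. No transgene was listed for 6 and 24 months. The line was Tg(flk:mCherry) at 12 months, Tg(pu.1:GFP) at 36 months and Tg(wt1a:GFP) at 42 months. The promoters named in these labels drive the fluorescent protein, and the line was fixed within an age, so that a change of line and a change of age cannot be told apart. Only the comparison of 24 with 6 months has no listed transgene on either side. Brain and skin had 5 libraries at each age, and liver had 4, 4, 5, 5 and 5 from the youngest age to the oldest, 73 libraries in all from 40 fish or pools. At 6 months, brain RNA came from pools of 2 fish each, and in comparisons with 6 months of brain, pooling and age cannot be told apart. "Old" stands for 36 and 42 months taken with equal weight, and "young" for 6 months.

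The proteasome is the protease that degrades proteins tagged with ubiquitin. Its core particle is a barrel of stacked rings: outer alpha rings that gate the entrance and inner beta rings that carry the proteolytic sites in psmb5, psmb6 and psmb7. The regulatory particle binds the ends of the barrel. Its base holds the ring of ATPases that unfold the substrate (psmc genes) and the large scaffold and ubiquitin-binding subunits psmd1, psmd2 and psmd4, and its lid holds the deubiquitinase psmd14 and the subunits around it. In vertebrates, cells of the immune system and cells exposed to interferon replace the proteolytic subunits with inducible ones (psmb8, psmb9a and psmb10, with psmb12 and psmb13a as further fish genes), which favours peptides for presentation on class I molecules. The alternative caps are PA28 alpha and beta (psme1, psme2), which interferon also induces in mammals, PA28 gamma of the nucleus (psme3) and PA200 (psme4 genes). Chaperones of the core (psmg1 to psmg4) and of the base (psmd5, psmd9, psmd10) assemble the particle, and psmf1 encodes PI31, named as an inhibitor.

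By these roles the 60 rows fell into 9 of the alpha ring, 7 of the constitutive beta ring, 7 inducible or lineage-specific beta genes, 7 ATPases, 5 other base subunits, 9 lid subunits, 3 base chaperones, 7 activators, 1 inhibitor and 4 core chaperones. The remaining row, psmc3ip, bears the prefix but encodes a partner of meiotic recombinases, not a subunit. Of the 60, 50 were found in the reference name table and 52 in the RefSeq gene table. The file symbols are older: the row psmb10 is now psmb13a (ENSDARG00000001656), psmb11 is psmb12 (ENSDARG00000031885), PSMB10 is psmb10 (ENSDARG00000043781) and the PSMB11 rows are psmb11a and psmb11b, and current names are used here. In RefSeq's gene order (GRCz12tu), psmb8a, psmb13a, psmb12 and psmb9a are neighbours on chromosome 19, and psmb11a lies next to psmb5 on chromosome 2. The row psmd2 and the row PSMD2 (2 of 2), and likewise psme4a and the rows PSME4 (3 of 4) and PSME4 (4 of 4), moved together in most comparisons; whether they are separate genes or pieces of 1 gene was not tested, so their counts of calls are uncertain. Reads of near-identical paralogs may also have been split or lost in the authors' counting.

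Each library held between 29006611 and 58166358 counts (brain 29006611 to 44324353, liver 31306947 to 58166358, skin 32925263 to 48935972), and no pair of libraries held identical values. Within a tissue, values are normalised read counts, brought to a common library size by TMM (CPM) over that tissue's libraries; between tissues they are scaled over all 73 libraries (joint CPM). A gene was called where edgeR's quasi-likelihood test gave an adjusted p (Benjamini-Hochberg over all genes tested) under 0.05, and fold changes are log2 with their standard error (SE). The low-count filter passed 58 members in brain, in skin and in the joint fit, and 57 in liver. psmb11a, the thymus-type beta subunit of mammals, was at 0 in 64 of 73 libraries and psmb11b in 45, with at most 11 and 5 counts, and neither was tested. PSME4 (4 of 4) was not tested in liver alone. Nothing in the labels says more of the replicates of a group than that they are separate fish or pools. Summed neuron markers were 9265 to 12290 CPM in brain against at most 304.6 in liver and 183.6 in skin, and keratinocyte markers 29560 to 66760 in skin against at most 1012 in brain and 4502 in liver. Hepatocyte markers summed to 5966 to 311400 in liver (median 121900), 303.7 to 6706 in brain (median 747) and 814.1 to 12380 in skin (median 1639), so the lowest liver library lay below the highest of brain and of skin. Liver libraries also held gut and pancreas markers in uneven amounts, and skin libraries held muscle markers, and these values stand beside the results they move with. In bulk tissue, fewer cells of a type and less RNA per cell cannot be told apart.

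The inducible beta genes and the PA28 alpha/beta caps separated brain from the other tissues more than any ring of the standard particle did. In skin, 41 of 58 members were higher than in brain and 6 lower, where 83.4% of all genes were called (42.4% higher, 41.0% lower). In liver, 54 were higher and 3 lower than in brain, against 85.1% of all genes called (43.1% higher, 42.0% lower). With shares of that size a call by itself says little, and the sizes differ by ring. The median log2 difference of skin from brain was 3.77 over the 5 inducible beta genes tested, 0.92 over the 9 of the alpha ring, 0.61 over the 7 of the constitutive beta ring, 0.23 over the ATPases, 0.15 over the other base subunits and 0.18 over the lid, beside 0.04 over all genes. For liver against brain the medians were 3.80, 1.27, 0.80 and 0.49 for the inducible, alpha, constitutive beta and ATPase genes, 0.44 for the lid and 0.03 over all genes. For some members the direction depended on the scaling. Joint CPM put psmc2 (medians 71.0 and 49.7) and psmd1 (136.9 and 87.4) higher in liver than in brain. The deposited RPKM, counts over library size and gene length, put both lower (27.5 and 53.3, 23.8 and 43.0). psmb8 was higher in liver by RPKM too (21.4 and 2.93).

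psmb8 (ENSDARG00000001303), the inducible counterpart of psmb5, ran from 0.869 to 9.90 joint CPM in brain (median 3.26), from 11.3 to 141.7 in liver (median 69.0) and from 51.7 to 113.6 in skin (median 76.4). No brain library reached the lowest library of liver or skin. The difference was 4.39 (SE 0.23) for skin and 4.04 (SE 0.23) for liver against brain on the log2 scale, a 21.0-fold difference for skin. psmb9a (ENSDARG00000000656), counterpart of psmb6, had a median of 2.79 joint CPM in brain (1.16 to 6.52), 27.2 in liver (7.57 to 81.6) and 41.3 in skin (28.5 to 62.0). psmb12, a fish relative of psmb9a, had medians of 2.58, 33.9 and 33.8 joint CPM, and its highest brain library (5.07) lay below the lowest of liver (10.6) and of skin (22.0). psmb13a had medians of 2.41, 37.7 and 51.2 joint CPM, with ranges of 0.658 to 7.49, 9.32 to 128.7 and 29.1 to 71.2. psmb10, the counterpart of psmb7, stood out among the 5 for its level in brain: 3.94 to 16.6 joint CPM (median 8.95) against 4.11 to 56.6 in liver (median 19.8) and 22.8 to 58.6 in skin (median 32.4), with differences from brain of 1.92 (SE 0.20) in skin and 1.39 in liver. Brain and liver libraries overlapped for psmb10, and the other 4 did not overlap between brain and either tissue. By the same ranges 15 members lay wholly above brain in skin and 15 in liver, and 0 below in either. The share of all genes without overlap between tissues is not given, so lack of overlap here and below only describes these genes.

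The caps followed their partners. psme1 (ENSDARG00000002165) had 5.47 to 24.3 joint CPM in brain (median 11.8), 37.9 to 161.2 in liver (median 82.5) and 68.2 to 136 in skin (median 96.9), and psme2 had medians of 8.26, 68.4 and 96.8. Their differences from brain were 3.01 (SE 0.14) and 3.41 (SE 0.15) in skin and 2.82 and 3.05 in liver, with no overlap with brain. psma6l, a fish paralog of the alpha subunit psma6, had the same order, at a median of 1.89 joint CPM in brain (0.988 to 4.47), 23.7 in liver (5.57 to 48.4) and 32.2 in skin (21.7 to 44.7), and differed from brain by 3.92 (SE 0.18) in skin and 3.34 in liver. PA28 gamma did not share the pattern in skin: psme3 had medians of 21.0, 25.3 and 22.8 joint CPM in brain, liver and skin, and its difference of skin from brain was not called (0.17, adjusted p = 0.124). psmf1 (PI31) had medians of 19.1, 23.4 and 19.2 joint CPM in brain, liver and skin, with no call between skin and brain (-0.05, adjusted p = 0.579). For both genes the lack of a call is stated for skin only, since 57 members were called between liver and brain. Their liver libraries overlapped those of brain.

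**Figure D1:**
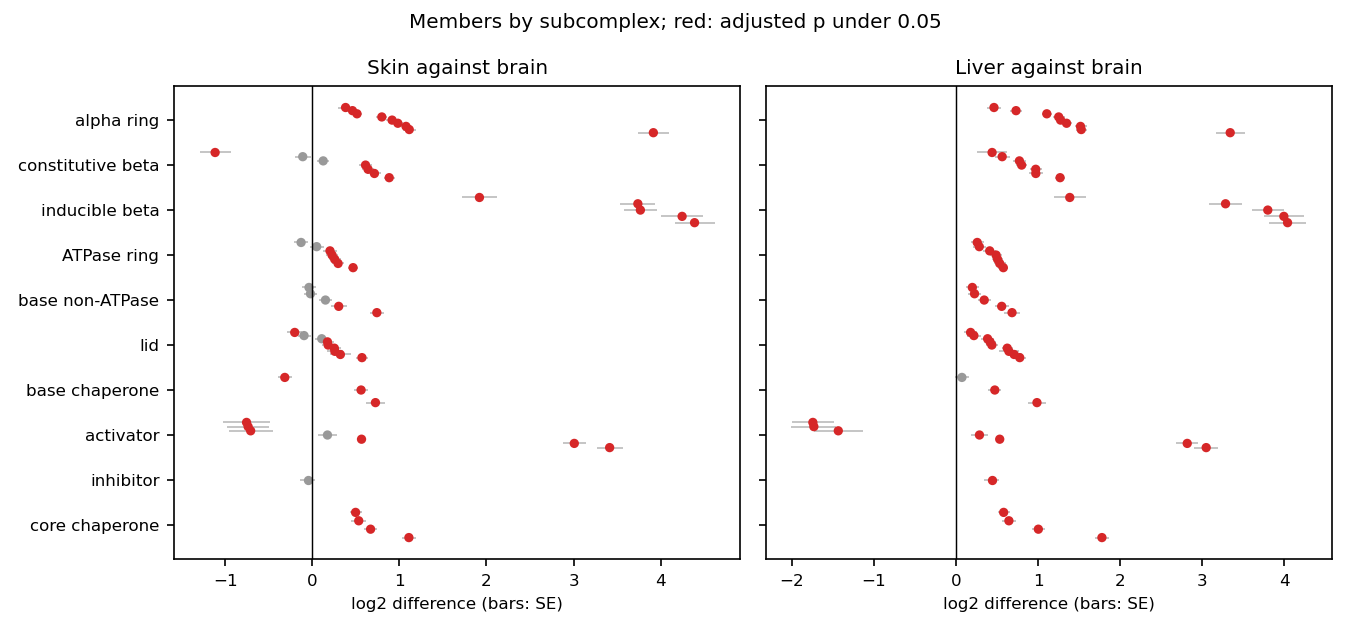
Log2 difference of skin from brain (one panel) and liver from brain (the other), one point per tested member with SE bars, grouped by subcomplex on the axis; red points had an adjusted p under 0.05, and psmc3ip is not drawn. The 5 inducible beta genes, psma6l, psme1 and psme2 stand to the right, up to 4.39 for psmb8 in skin, while psmb7 (skin) and the psme4a rows lie below 0.

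A few members were lower outside brain. The PA200 gene psme4a (ENSDARG00000069346) had 4.47 to 9.01 joint CPM in brain (median 7.29), 0.239 to 6.53 in liver (median 1.75) and 0.603 to 19.6 in skin (median 3.02), with differences from brain of -1.74 (SE 0.26) in liver and -0.74 (SE 0.24, adjusted p = 0.00408) in skin. Its paralog psme4b (ENSDARG00000018742) went the other way in skin, 0.56 above brain, at medians of 39.8 joint CPM in brain and 61.2 in skin. psmb7 (ENSDARG00000037962), the trypsin-like site of the standard core, had 29.0 to 48.2 joint CPM in brain (median 35.9), 7.31 to 33.2 in skin (median 16.8) and 5.19 to 110.1 in liver (median 54.0), and was the lowest member of skin against brain at -1.12 (SE 0.18). The other proteolytic subunits of skin did not pass the test against brain: psmb5 (ENSDARG00000075445) differed by -0.11 and psmb6 by 0.12. With RLE size factors in place of TMM, the counts against brain were 37 higher and 9 lower in skin, and 48 higher and 3 lower in liver. The share of all genes called with RLE is not given, so these counts by themselves say little of the members. With TMM, also lower in skin were psmd5 (-0.32) and psmd6 (-0.20), and in liver and skin the rows PSME4 (3 of 4) (-1.73 and -0.71) and PSME4 (4 of 4) (-1.43 and -0.76).

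Liver and skin differed by less. There 34 of 58 members were higher in liver and 8 lower, where 73.5% of all genes were called (36.9% higher, 36.6% lower), at a median of 0.23 over the members. psmb7 was the highest, at 1.56 (SE 0.18), followed by psma2 at 0.73 and psmb6 at 0.67, and psmf1 stood at 0.49. By median RPKM, psmb7 was also higher in liver than in skin (20.8 and 14.8). psma2 (34.7 and 42.2), psmb6 (21.1 and 28.2) and psmf1 (9.78 and 18.5) were lower in liver by RPKM, so their direction depended on the scaling. The lowest, after the psme4a rows (psme4a -1.01, PSME4 (3 of 4) -1.02, PSME4 (4 of 4) -0.68), were psma6l (-0.57), psmb10 (-0.53), psmb9a (-0.45) and psme2 (-0.36). psmb8 (-0.35), psmb13a (-0.25), psmb12 (0.03) and psme1 (-0.19) were not called between liver and skin.

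Levels of different genes were compared on the deposited RPKM, which divides by gene length. By median RPKM the highest member was psmd6, a lid subunit, in brain (70.8), psma8, a paralog of the alpha subunit psma7, in liver (49.6) and psme1 in skin (91.3), and the lowest was psmb11a at 0 in each tissue, with psmb11b also at 0 in brain and liver. Of the summed RPKM of the 8 genes for proteolytic subunits, psmb5, psmb6 and psmb7 with their 5 inducible relatives, the inducible genes made 12.2% to 35.6% in brain (median 18.5%), 24.1% to 87.0% in liver (median 55.3%) and 61.2% to 81.3% in skin (median 74.3%). Site by site the order was the same. psmb8 made a median of 5.99% of its pair with psmb5 in brain, 45.7% in liver and 62.6% in skin. psmb9a and psmb12 made 21.0%, 63.6% and 76.7% of their sum with psmb6, and psmb10 and psmb13a made 27.6%, 50.4% and 83.9% of their sum with psmb7. These are shares of RNA, given as a description with no test.

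Among paralog pairs, the shares of RPKM changed less. psma6a made a median of 48.9%, 38.1% and 47.8% of its pair with psma6b in brain, liver and skin, psmc1a 37.5%, 40.7% and 42.4% of the ATPase pair psmc1, psmd4a 42.9%, 41.4% and 33.2% of the ubiquitin receptor pair, and psmd11a 52.5%, 52.8% and 56.8% of the lid pair psmd11. The PA200 pair was the uneven one, with psme4a at 17.9% of psme4a and psme4b in brain, 3.95% in liver and 6.30% in skin.

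In liver the levels of several members differed with the gut markers of the piece. Of the 20 enterocyte genes listed, 16 were found. In 9 of 23 libraries they summed to 10540 to 49520 CPM (2 libraries of 6 months, 3 of 12, 1 of 24, 2 of 36 and 1 of 42), and in the other 14 to 633.9 to 6086, where brain held 26.74 to 366.1 and skin 65.28 to 1012. psmb8 had a median of 44.8 CPM in the 9 and 18.7 in the 14, psmb13a 40.5 and 11.8, psmb10 21.2 and 7.75, psmb9a 24.3 and 9.60, psma6l 17.1 and 7.33 and psme1 52.8 and 29.4. psmb7 went the other way, at 13.1 CPM in the 9 and 36.6 in the 14. All 60 members overlapped between the 9 and the 14 libraries. Without the 9 libraries, the median inducible share of RPKM in liver was 34.6% in place of 55.3%, between brain and skin, and 55 members were called between liver and brain, 43 between liver and skin, of which 37 were among the 42 of all libraries. These counts stand without the share of all genes called in that fit, and by themselves say little of the members. How far gut tissue accounts for the inducible genes of liver was not tested.

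**Figure D2:**
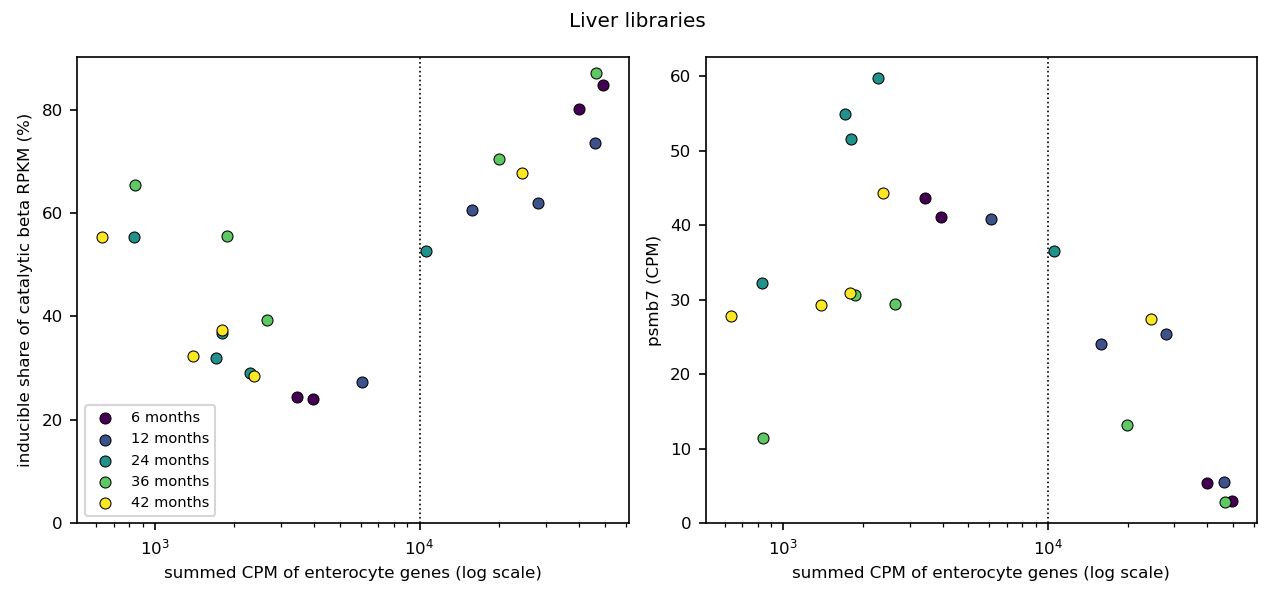
Each point is 1 of 23 liver libraries. The horizontal axis is the summed CPM of 16 enterocyte genes (log scale, dotted line at 10000), and the vertical axes are the inducible share of RPKM in percent and psmb7 in CPM. The 9 libraries to the right of the line lie mostly above the others in the first panel and below them in the second.

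Skin had the most members called by age, and not along one line: members were higher than at 6 months at 12 and 24 months, lower at 36 months, and at 42 months none was called. At 12 months 11 of 58 members were higher and 1, psmc3ip, lower, where 9.08% of all genes were called (4.77% higher, 4.31% lower). At 24 months 24 were higher and none lower against 20.2% of all genes (10.7% higher, 9.49% lower), and the median member stood at 0.38 on the log2 scale beside 0.00 over all genes. At 36 months 27 were lower and none higher, against 18.0% of all genes (10.1% higher, 7.90% lower), at a median of -0.40. At 42 months edgeR's quasi-likelihood test called 0 of 58 members against 8.07% of all genes (4.62% higher, 3.44% lower), none had an unadjusted p under 0.05, DESeq2 called 0, and the median was 0.11. All of these share the 6 month libraries. Set against each other in the same fit, a pair of comparisons added after these values were seen, 36 months had 41 members lower than 24 months and none higher (25.8% of all genes called, 12.9% in each direction, member median -0.88), and 42 months had 30 higher than 36 months and none lower (10.0% called, 4.98% higher and 5.05% lower, member median 0.48).

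The core genes show the course library by library. psma3 (ENSDARG00000086618), a subunit of the gating alpha ring, had 62.3, 62.0, 62.2, 73.3 and 76.3 CPM at 6 months, 94.5, 76.6, 89.8, 92.0 and 84.3 at 12 months, 80.7, 112.6, 116.9, 84.1 and 98.2 at 24 months, 35.6, 35.8, 46.1, 50.1 and 53.1 at 36 months, and 86.3, 56.4, 66.5, 89.9 and 84.0 at 42 months. Every library of 24 months lay above and every library of 36 months below all of 6 months, and those of 42 months overlapped them. The change from 6 months was 0.55 (SE 0.14, adjusted p = 0.00917) at 24 months and -0.61 (SE 0.14, adjusted p = 0.00531) at 36 months, and from 36 to 42 months 0.80 (SE 0.14, adjusted p = 0.00208). psmb5, the chymotrypsin-like site, had 30.7, 35.9, 35.5, 39.0 and 43.5 CPM at 6 months, 58.4, 43.0, 56.8, 56.8 and 55.0 at 12 months, 57.6, 68.4, 70.7, 51.1 and 55.4 at 24 months, 23.6, 18.4, 23.1, 35.8 and 36.8 at 36 months and 45.6, 33.5, 39.1, 43.9 and 43.6 at 42 months. It rose by 0.55 (SE 0.16, adjusted p = 0.0351) at 12 months and by 0.72 (SE 0.16, adjusted p = 0.00348) at 24 months, where no library overlapped 6 months. At 36 months, replicates 1, 2 and 3 of psmb5 lay below all of 6 months and replicates 4 and 5 within them.

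The base and the lid took the same course. psmc1a (ENSDARG00000030537), an ATPase, had 35.0, 38.4, 35.4, 46.3 and 49.0 CPM at 6 months, 63.7, 72.8, 75.8, 53.0 and 66.0 at 24 months, and 22.9, 25.2, 26.6, 35.2 and 35.2 at 36 months. It rose by 0.70 (SE 0.14, adjusted p = 0.00163) at 24 months and lay 1.19 lower at 36 than at 24 months (log2 change -1.19, SE 0.14, adjusted p = 1.1e-05). psmd1 (ENSDARG00000003189), the scaffold of the base, had 99.8, 98.5, 94.8, 108.2 and 131.1 CPM at 6 months, 145.1, 276.7, 175.8, 138.0 and 125.1 at 24 months, and 49.7, 54.4, 63.2, 99.4 and 85.7 at 36 months. Replicate 2 of 24 months was its highest library and replicate 5 overlapped 6 months, and the changes were 0.69 (SE 0.20, adjusted p = 0.0201) and -0.60 (SE 0.20, adjusted p = 0.0462). psmd8, a lid subunit, had the highest rise among called members at both 12 months (0.76, SE 0.23, adjusted p = 0.0377) and 24 months (0.88, SE 0.23, adjusted p = 0.00911), from 32.8, 39.0, 34.5, 53.6 and 47.5 CPM at 6 months to 64.0, 73.9, 109.2, 60.8 and 72.8 at 24 months. Next at 24 months were the lid subunit psmd12 (0.81, SE 0.17, adjusted p = 0.00247) and the base chaperone psmd10 (0.76, SE 0.18, adjusted p = 0.00456), and next at 12 months were psma5 (0.70, SE 0.14, adjusted p = 0.00472) and psmb5. The smallest called rises were psma8 (0.36), psmb6 (0.37) and psmc5 (0.37) at 12 months, and psmb2 (0.35), psmd6 (0.39) and psma4 (0.40) at 24 months.

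**Figure D3:**
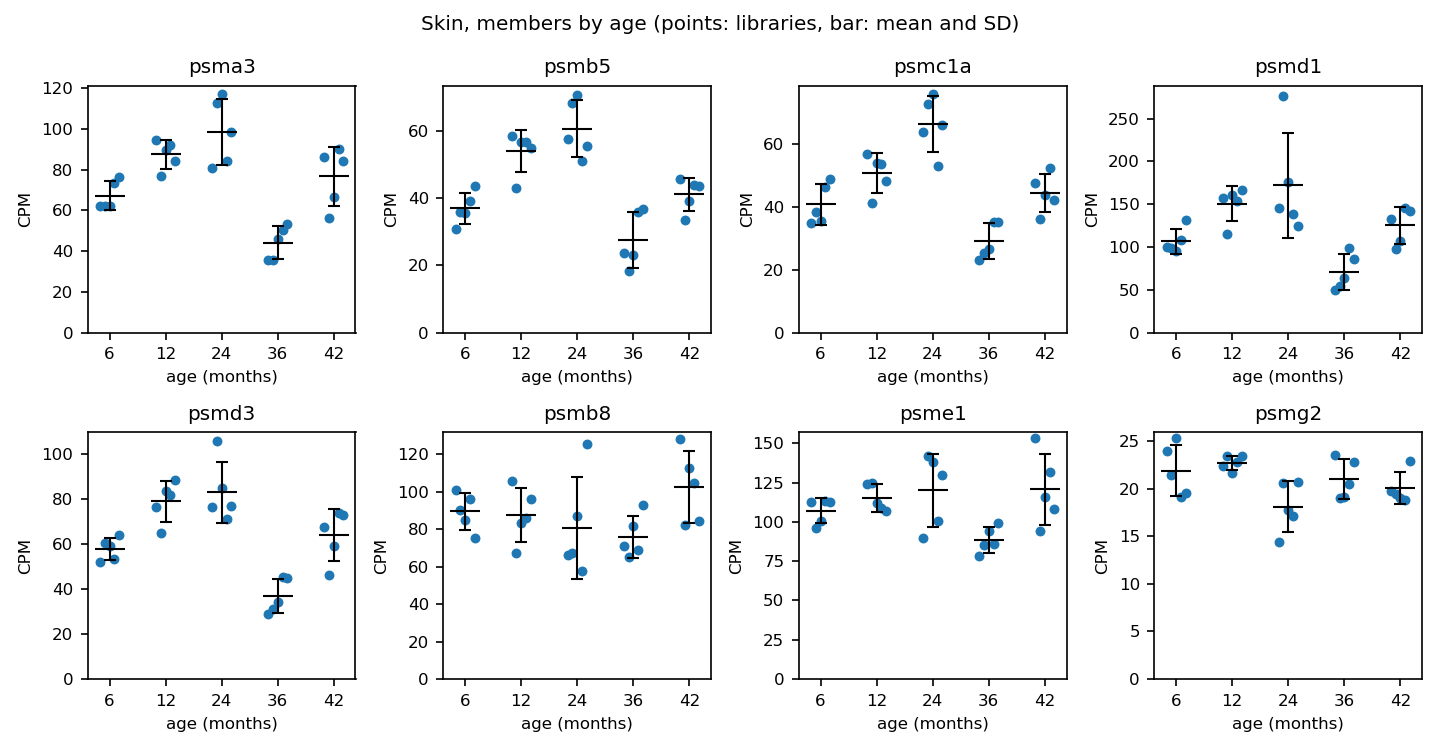
CPM (vertical axis) by age in months for 8 members in skin, 1 point per library (5 per age) with the mean and SD of each age. psma3, psmb5, psmc1a, psmd1 and psmd3 are higher at 24 and lower at 36 months than at 6, while psmb8, psme1 and psmg2 have no called change from 6 months at either age.

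By subcomplex, the rise at 24 months was called in 6 of 7 ATPases (median 0.50), 7 of 9 lid genes (0.47), 3 of 5 other base genes (0.51), 3 of 7 constitutive beta genes (0.40) and 4 of 9 alpha genes (0.29). The lower level at 36 months was called in 6 of 7 ATPases (-0.46), 5 of 5 other base genes (-0.50), 5 of 9 lid genes (-0.46), 3 of 7 constitutive beta genes (-0.45), 3 of 9 alpha genes (-0.20) and 4 of 7 activators (-0.56). Between 24 and 36 months all 7 ATPases, all 7 constitutive beta genes and all 5 other base genes were called lower, with 8 of 9 in the lid and 6 of 9 in the alpha ring. The largest falls there after the psme4a rows were psmd8 (-1.40, SE 0.23), psmd11b (-1.35) and psmb7 (-1.35), and the smallest called were psma6b (-0.27), psmb6 (-0.31) and psme1 (-0.44). From 36 to 42 months 7 of 7 ATPases, 5 of 7 constitutive beta, 5 of 9 lid and 4 of 9 alpha genes were called higher. Over all called members, activators included, the rises ran from 2.54 for the activator row PSME4 (4 of 4), which had few reads, to 0.38 for the activator psme4b. The next smallest were psma8 at 0.39 and the activator psme1 at 0.45.

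The inducible beta genes and the core chaperones had no call at any age of skin. edgeR's quasi-likelihood test called 0 of the 5 inducible genes in each of the 4 comparisons with 6 months, none had an unadjusted p under 0.05 there, and DESeq2 also called 0. Their medians ran between -0.16 at 36 and 0.19 at 42 months. psmb8 had 100.8, 90.5, 85.0, 96.4 and 75.2 CPM at 6 months, 66.1, 67.5, 87.2, 57.7 and 125.6 at 24 months, 70.9, 65.1, 81.8, 68.8 and 92.8 at 36 months and 128.0, 82.2, 112.5, 104.8 and 84.6 at 42 months, and the ages overlapped. Between 36 and 24 months 2 of the 5 had an unadjusted p under 0.05, 1 in each direction, and none was called by either tool. The core chaperones had 0 of 4 called by edgeR in the same 4 comparisons; 2 had an unadjusted p under 0.05 at 12 months and 1 at 24 months, and DESeq2 called 1 lower at 24 months. psmg2, one of their number, had 24.0, 21.4, 25.4, 19.2 and 19.6 CPM at 6 months, 14.4, 20.6, 17.7, 17.1 and 20.7 at 24 months and 23.6, 19.1, 19.2, 20.4 and 22.8 at 36 months. At 12 months psmg1 (24.8 to 30.7 CPM against 17.6 to 22.8) and psmg4 (9.33 to 10.2 against 7.29 to 8.70) lay wholly above 6 months. psmg2 and psmg3 overlapped there. As the share of the summed RPKM of proteolytic genes, the inducible genes had medians of 75.8% at 6, 67.7% at 12, 67.0% at 24, 76.7% at 36 and 77.2% at 42 months in skin. Whether the inducible genes changed by less than the constitutive ones was not tested.

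Members whose skin libraries did not overlap 6 months were also counted, from the same libraries as the calls above, so these counts are no separate evidence. At 12 months 15 of 58 lay wholly above and 0 below (4.79% and 4.08% of all genes), at 24 months 19 above and 0 below (7.70% and 6.01%), at 36 months 0 above and 11 below (6.74% and 4.58%), and at 42 months 0 and 0 (3.21% and 2.74%). The 11 at 36 months were psma3, psma4, psmb4, psmb7, psmc1b, psmd3, psmd5, psme4b and the 3 psme4a rows. Against 24 months, 36 lay wholly below and 0 above at 36 months (7.54% and 8.25% of all genes), and 42 months had 15 wholly above 36 months and 0 below (2.94% and 4.13%).

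Old against young skin, which averages 36 and 42 months, had 0 members higher and 7 lower of 58, where 15.1% of all genes were called (7.81% higher, 7.32% lower), at a median of -0.15 beside 0.01 over all genes. Of the 7, 4 were PA200 rows: PSME4 (4 of 4) (-2.15, SE 0.57, adjusted p = 0.0144), PSME4 (3 of 4) (-1.80, SE 0.52, adjusted p = 0.0220), psme4a (-1.76, SE 0.52, adjusted p = 0.0251) and psme4b (-0.37, SE 0.09, adjusted p = 0.00848). The other 3 were the lid subunit psmd11b (ENSDARG00000005134; -0.62, SE 0.20, adjusted p = 0.0452), the base chaperone psmd5 (ENSDARG00000059046; -0.45, SE 0.15, adjusted p = 0.0424) and the ATPase psmc1b (-0.32, SE 0.11, adjusted p = 0.0493). None of the 58 had old libraries wholly above or below those of 6 months (1.44% and 0.776% of all genes). The count fell to 1 without replicate 4 of 6 months, to 3 without replicate 5 of 6 months, to 4 without replicate 3 of 6 or of 36 months or replicate 2 or 3 of 42 months, and to 0 with age fitted as a line.

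The largest changes of members in skin were those of the PA200 rows. psme4a had 4.61, 8.58, 3.15, 13.6 and 7.48 CPM at 6 months, 3.21, 4.25, 7.95, 22.0 and 9.06 at 12 months, 4.32, 2.77, 2.27, 19.8 and 1.43 at 24 months, 1.36, 1.17, 0.685, 0.727 and 1.07 at 36 months, and 2.82, 3.37, 6.92, 2.06 and 8.88 at 42 months. All libraries of 36 months lay below all of 6, 12, 24 and 42 months, and replicate 4 was the highest at 6, 12 and 24 months. The change at 36 months was -2.90 (SE 0.68, adjusted p = 0.00513), followed by a rise of 2.26 (SE 0.66, adjusted p = 0.0332) to 42 months. PSME4 (4 of 4) and PSME4 (3 of 4) had -3.42 (SE 0.77, adjusted p = 0.00418) and -2.81 (SE 0.67, adjusted p = 0.00585) at 36 months, the former at 0.029 to 0.0925 CPM, which is a handful of reads. The more abundant psme4b moved less, from 64.9, 71.7, 71.5, 81.7 and 78.2 CPM at 6 months to 44.3, 42.6, 47.9, 58.7 and 56.6 at 36 months (-0.56, SE 0.10, adjusted p = 0.000967) and 63.5, 60.8, 64.3, 69.9 and 67.6 at 42 months. psme4a thereby made 1.48% to 3.60% of the pair's RPKM at 36 months, below the 5.07% to 16.8% of 6 months.

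psmd11b and psmd5 were next at 36 months. psmd11b had 28.8, 38.1, 32.5, 44.5 and 38.1 CPM at 6 months and 11.1, 13.2, 14.4, 28.9 and 25.9 at 36 months, a change of -0.96 (SE 0.24, adjusted p = 0.00909). Its paralog psmd11a made 64.5% to 71.4% of the pair's RPKM at 36 months in skin, above the 53.1% to 57.7% of 6 months. psmd5 had 8.78, 8.28, 11.8, 13.1 and 14.2 CPM at 6 months, 13.1, 20.1, 14.1, 13.1 and 15.8 at 24 months, 6.05, 4.56, 6.33, 6.74 and 6.73 at 36 months and 12.1, 8.04, 10.6, 14.2 and 10.01 at 42 months. It lay -0.88 (SE 0.18, adjusted p = 0.00171) below 6 months and -1.32 (SE 0.18, adjusted p = 3.0e-05) below 24 months at 36 months, and rose by 0.85 (SE 0.18, adjusted p = 0.00540) to 42 months. The smallest called changes at 36 months were psmc5 (-0.35), psmc2 (-0.39) and psmd6 (-0.41).

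Muscle and macrophage markers moved with age in the same skin libraries. The summed CPM of 24 found skeletal muscle genes (of 25 listed) had a lowest, median and highest value of 16300, 25790 and 35770 at 6 months, 18850, 23680 and 48910 at 12, 7691, 12690 and 30140 at 24, 2547, 6364 and 56390 at 36, and 2581, 14490 and 17780 at 42 months. Macrophage genes (15 of 22 found) summed to 3483 to 3823 CPM at 6 months, 1272 to 2640 at 24 and 2625 to 4403 at 36, and lymphocyte genes (13 of 17 found) to 57.93 to 123.8 at 6 and 94.33 to 604.4 at 36 months. Keratinocyte genes (18 of 20 found) overlapped, at 34270 to 50790 CPM at 6 and 45120 to 66760 at 36 months. With the muscle sum as a covariate, an alternative partly added after the data were seen, 15 members were called at 12, 16 at 24, 31 at 36 and 0 at 42 months, with 46 between 36 and 24 and 36 between 42 and 36 months. These included 12 of the 12 calls at 12 months, 16 of 24 at 24 months, 26 of 27 at 36 months, 41 of 41 and 30 of 30, each in its direction. Old against young, 6 were called with that covariate, 4 of them among the 7 above, and psme4a, PSME4 (3 of 4) and PSME4 (4 of 4) were not. The share of all genes called with the covariate is not given, so these counts by themselves say little of the members. The part of macrophages and lymphocytes was not tested. Of single libraries, leaving out replicate 3 of 36 months left 16 of 27 calls at that age, and leaving out replicate 1 of 36 months left 14 calls between 42 and 36 months, as against 19 without replicate 4 or 5 of 42 months. At 24 months 12 calls were left without replicate 1 of 6 months or replicate 2 of 24 months, 13 without replicate 3 of 24 months and 14 without replicate 3 of 6 months. At 12 months 3 were left without replicate 1, 4 or 5 of that age, 4 without its replicate 3 or without replicate 1 or 3 of 6 months, and 6 without replicate 4 or 5 of 6 months.

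**Figure D4:**
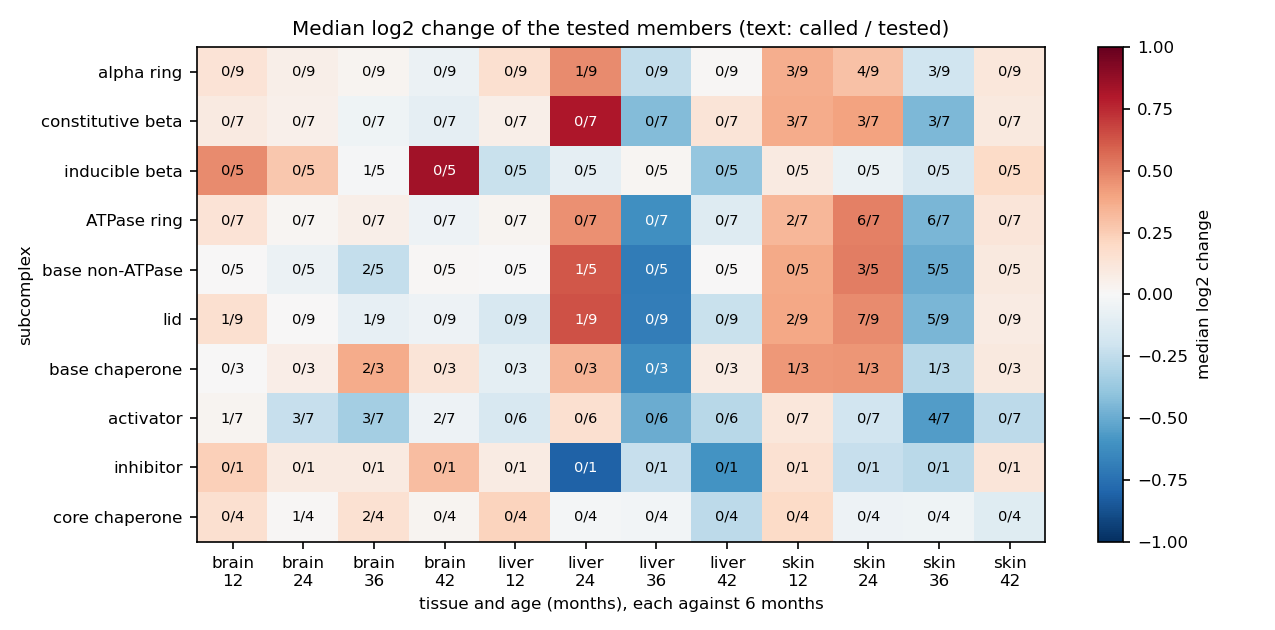
Median log2 change from 6 months of each subcomplex (vertical) at each age in brain, liver and skin (horizontal); colour gives the median and the text in each cell the number of members called and tested. Skin turns from 24 of 58 called higher at 24 months to 27 of 58 lower at 36 months, and liver has no call at 12, 36 or 42 months.

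In brain few members of the standard rings were called, and the called members of old against young were caps, base chaperones and a lid subunit. Old against young, 3 of 58 members were higher and 4 lower, where 19.6% of all genes were called (8.97% higher, 10.6% lower), at a median of -0.02 beside -0.01 over all genes. The higher were psme1 (0.60, SE 0.18, adjusted p = 0.0263), psmd9 (0.32, SE 0.09, adjusted p = 0.0129) and psmd5 (0.27, SE 0.09, adjusted p = 0.0397). The lower were psme4a (-0.38, SE 0.07, adjusted p = 0.000578), PSME4 (3 of 4) (-0.38, SE 0.08, adjusted p = 0.00294), psme3 (-0.28, SE 0.09, adjusted p = 0.0348) and psmd11b (-0.22, SE 0.07, adjusted p = 0.0303). psmd9 was the 1 member whose 10 old libraries all lay above young, and 0 members lay wholly below (1.87% and 1.72% of all genes). The count fell to 3 without replicate 3 of 6 months and to 4 without any other single library of 6 months, the pools, and to 2 with age fitted as a line. Old against 12 months, which compares single fish, called 0 higher and 4 lower (10.7% of all genes), where DESeq2 called 1 higher and 10 lower, 2 of the alpha ring, 3 of the lid and 3 activators among them. DESeq2's share of all genes is not given, so its counts by themselves say little of the members. The 4 of edgeR were psmd11b (-0.40, SE 0.07, adjusted p = 0.00110), psme3 (-0.34, SE 0.09, adjusted p = 0.0244), psmb4 (-0.26, SE 0.07, adjusted p = 0.0237) and psme4a (-0.22, SE 0.07, adjusted p = 0.0454), with 15 calls without replicate 5 of 36 months, 1 without replicate 3 of 12, replicate 2 of 36 or replicate 5 of 42 months, and 2 without replicate 1 of 36 or of 42 months.

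Most of the brain calls fell at 36 months, with 4 members higher and 7 lower where 28.7% of all genes were called (13.6% higher, 15.1% lower). In both directions the share of members called lay below that of all genes. Of the brain ages compared with 6 months, 36 months also had the largest share of all genes called, so the timing is not particular to the members. psme4a had 13.2, 13.7, 10.4, 11.8 and 13.7 CPM at 6 months, 9.13, 9.35, 10.4, 9.58 and 10.9 at 24 months, 7.06, 7.40, 7.81, 7.95 and 7.98 at 36 months and 11.7, 11.9, 11.9, 13.2 and 12.0 at 42 months. All 5 libraries of 36 months lay below every other age shown, and those of 42 months lay within the range of 6 months. The change was -0.72 (SE 0.08, adjusted p = 2e-06) at 36 months and -0.35 (SE 0.08, adjusted p = 0.00593) at 24 months, and the share of psme4a in the pair's RPKM was 12.7% to 15.05% at 36 against 17.9% to 21.5% at 6 months. PSME4 (3 of 4) followed at -0.71 (SE 0.10). psmb10 was the one inducible gene called in brain, at 13.2, 11.9, 12.1, 12.3 and 13.8 CPM at 6 months and 8.94, 9.70, 6.07, 8.83 and 8.86 at 36 months (-0.58, SE 0.20, adjusted p = 0.0303). The lower members were completed by psme3 (-0.34), psmd11b (-0.31, SE 0.08, adjusted p = 0.00596), PSMD2 (2 of 2) (-0.28) and psmd2 (-0.24).

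The higher members at 36 months were all chaperones. psmd5 had 17.8, 17.2, 17.5, 16.6 and 15.96 CPM at 6 months and 23.3, 21.1, 21.3, 23.0 and 24.1 at 36 months in brain (0.41, SE 0.10, adjusted p = 0.00547), where in skin the same gene fell. psmd9 had 10.02, 11.2, 9.49, 9.16 and 10.7 CPM at 6 months and 12.6, 12.4, 13.03, 12.3 and 14.9 at 36 months (0.37, SE 0.10, adjusted p = 0.00857). The core chaperones psmg1 (0.34, SE 0.09, adjusted p = 0.00768) and psmg2 (0.27) were the other called members, with psmg1 at 19.8 to 23.4 CPM at 6 and 25.1 to 29.2 at 36 months. In all, 3 members (psmd5, psmd9, psmg1) lay wholly above 6 months and 5 wholly below (psmb10, PSMD2 (2 of 2), psmd11b, PSME4 (3 of 4), psme4a), against 10.4% and 10.2% of all genes. The count of 11 fell to 7 without replicate 5 of 6 months.

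**Figure D5:**
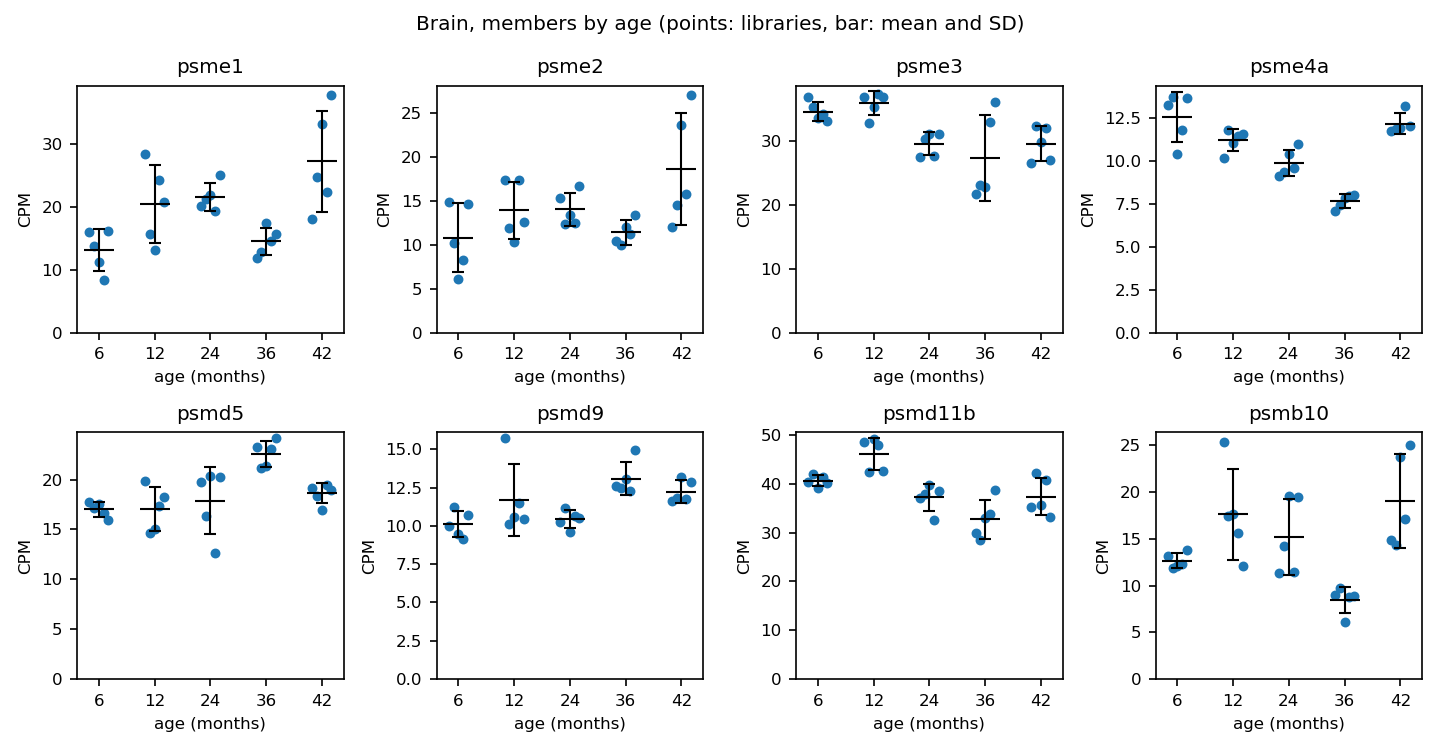
CPM (vertical axis) by age in months for 8 members in brain, 1 point per library (5 per age; those of 6 months are pools) with the mean and SD. psme4a, psmd11b and psmb10 have their lowest means at 36 months, psmd5 and psmd9 are higher there than at 6 months, and psme1 and psme2 reach their highest values, 37.7 and 27.0 CPM, at 42 months.

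Of the PA28 caps in brain, psme1 was called higher at 12, 24 and 42 months and psme2 at 42 months. At 42 months psme1 and psme2 were the 2 members called, both higher, where 8.67% of all genes were called. psme1 had 16.1, 13.7, 11.3, 8.44 and 16.2 CPM at 6 months, 28.4, 15.6, 13.2, 24.2 and 20.7 at 12 months, 20.1, 21.3, 21.9, 19.4 and 25.0 at 24 months, 11.9, 12.8, 17.4, 14.6 and 15.7 at 36 months and 18.1, 24.7, 33.2, 22.4 and 37.7 at 42 months. All libraries of 24 and of 42 months lay above all of 6 months, and those of 36 months overlapped them. It rose by 0.64 (SE 0.21, adjusted p = 0.0373) at 12, 0.71 (SE 0.21, adjusted p = 0.0256) at 24 and 1.05 (SE 0.21, adjusted p = 0.00415) at 42 months. psme2 had 14.9, 10.2, 6.04, 8.21 and 14.6 CPM at 6 months and 12.0, 14.5, 23.6, 15.8 and 27.0 at 42 months, which overlap (0.78, SE 0.23, adjusted p = 0.0346).

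The inducible beta genes of brain had higher means at 42 months without a call. All 5 lay above 0, between 0.59 and 1.01 on the log2 scale, and all 5 had an unadjusted p under 0.05, but edgeR's quasi-likelihood test called 0 and DESeq2 1: the adjusted p was 0.0590 for psmb10, 0.128 for psmb9a and 0.161 for psmb12. The share of all genes with an unadjusted p under 0.05 at that age is not given. psmb8 had 7.25, 3.90, 1.52, 1.34 and 8.27 CPM at 6 months and 3.70, 6.31, 11.9, 4.80 and 15.4 at 42 months, and psmb10 had 14.9, 14.3, 23.8, 17.2 and 25.1 at 42 months. Replicates 3 and 5 of 42 months were the highest of their age for psmb8, psmb9a, psmb10, psmb12, psmb13a, psme1 and psme2. Without either of them, 1 of the 2 calls of 42 months was left, as without replicate 2, 3 or 4 of 6 months, and without replicate 1 of 12 months there were 4. In the same libraries macrophage genes summed to 603 to 1801 CPM at 42 months (median 845.6) and 546.9 to 794.1 at 6 months, with 15 of 22 genes found and 1 of these at 0, and their part in the result was not tested. The inducible share of proteolytic RPKM in brain had a median of 13.4% at 6, 18.9% at 12, 18.5% at 24, 14.3% at 36 and 20.7% at 42 months.

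Further calls of brain were few. At 12 months 2 members were higher and 0 lower (18.3% of all genes called; DESeq2 called 4): psme1 and the lid subunit psmd6, which had 95.4, 109.9, 91.3, 93.9 and 91.1 CPM at 6 and 121.1, 103.3, 117.3, 114.2 and 109.5 at 12 months (0.23, SE 0.08, adjusted p = 0.0410). At 24 months 2 were higher, psme1 and psmg2 (0.28), and 2 lower, psme4a and PSME4 (3 of 4) (-0.34), where 13.9% of all genes were called. Leaving out single libraries moved these counts to between 0 and 4 at 12 months, with 0 without replicate 3 or 4 of 6 months or replicate 1 of 12 months, and to 2 at 24 months without replicate 3, 4 or 5 of 6 or replicate 1, 2 or 3 of 24 months.

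In liver no member was called old against young: edgeR's quasi-likelihood test called 0 of 57 where it called 0.190% of all genes, 8 members had an unadjusted p under 0.05, all lower, and DESeq2 called 3 lower. No share of all genes is given at the unadjusted threshold or for DESeq2, so the 8 and the 3 by themselves say little of the members. The members stood at a median of -0.26 beside -0.02 over all genes, and 12 of 57 lay above 0. The smallest p were those of psme4b and psmd11b. psme4b had 37.2, 41.1, 46.1 and 39.4 CPM at 6 months, 24.9, 24.2, 26.7, 27.4 and 24.7 at 36 months and 30.8, 26.0, 28.3, 26.2 and 32.1 at 42 months (-0.60, SE 0.14, adjusted p = 0.0912), and no old library reached a young one. The lower level was not confined to old fish: at 12 months it had 27.7, 33.6, 27.3 and 27.5 CPM, all below 6 months. At 24 months it had 24.2 to 43.9 CPM, which overlapped 6 months. In old against young, psme4b was the one member of 57 without overlap (0 above and 1 below, against 0.656% and 0.580% of all genes). psmd11b had 20.4, 29.4, 41.6 and 28.3 CPM at 6 months, 7.65, 17.3, 19.2, 15.7 and 14.3 at 36 months and 16.7, 11.5, 23.5, 10.6 and 17.9 at 42 months (-0.96, SE 0.24, adjusted p = 0.0945), and replicate 3 of 42 months overlapped 6 months. Next were psmd11a (-0.55, SE 0.18, adjusted p = 0.200), psme3 (-0.80, SE 0.27, adjusted p = 0.211), psmc3 (-0.48) and psmd7 (-0.45), and all 9 lid genes lay below 0 at a median of -0.46.

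At 24 months liver had 3 members higher and none lower against 3.55% of all genes (1.68% higher, 1.88% lower), where DESeq2 called 13 higher, among them 5 of the constitutive beta ring, 3 of the alpha ring and 3 of the lid. The 3.55% is edgeR's share, and DESeq2's share of all genes is not given, so the 13 by themselves say little of the members. In all, 48 of 57 were above 0 at a median of 0.37 beside 0.07 over all genes. psma3 had 28.1, 45.4, 42.2 and 36.7 CPM at 6 months and 71.0, 111.5, 111.3, 80.0 and 70.7 at 24 months (1.22, SE 0.28, adjusted p = 0.0246). psmd1 had 55.2, 58.8, 90.4 and 76.8 CPM at 6 and 113.4, 238.9, 146.5, 164.0 and 107.2 at 24 months (1.13, SE 0.29, adjusted p = 0.0346). psmd12 had 21.9, 26.6, 32.6 and 29.7 CPM at 6 and 44.3, 86.6, 42.5, 72.6 and 49.6 at 24 months (1.09, SE 0.26, adjusted p = 0.0282). None of the 3 overlapped between the ages, and in all 16 members lay wholly above and 1, psmf1, wholly below (3.38% and 3.33% of all genes). The median was 0.81 for the constitutive beta ring, 0.64 for the lid and -0.09 for the inducible genes, of which none was called by edgeR or DESeq2 and none had an unadjusted p under 0.05. The 3 calls were not left without the 9 libraries rich in gut markers, nor without replicate 1, 3 or 4 of 6 months or replicate 2 of 24 months, with 1 left without replicate 2 of 6 months and 8 called without replicate 3 of 42 months.

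At 12, 36 and 42 months no member of liver was called, where 0.0380%, 0.0855% and 0.105% of all genes were. An unadjusted p under 0.05 was found for 2, 22 and 4 members, the 22 of 36 months all lower, and DESeq2 called 0, 2 and 2, those of 36 and 42 months all lower. The share of all genes at that unadjusted threshold, or called by DESeq2, is not given, so these counts by themselves say little of the members. At 36 months the median was -0.47 beside 0.00 over all genes, and psmc3, psmd1, psmd2, psmd7, psmd11b, psmd14 and psme4b lay wholly below 6 months (7 below and 0 above, against 1.95% and 2.06% of all genes). psma3 there had 16.6, 30.4, 21.8, 30.6 and 25.4 CPM. Replicate 1 of 36 months held 183400 CPM of exocrine pancreas genes (13 of 16 found), the highest of the 23 liver libraries, in which that sum started at 56.02, and was the lowest of its age for psma3, psmc3, psmd7 and psmd11b. By median log2 change from 6 months it was also the lowest of its age in the alpha ring (-0.576), constitutive beta ring (-0.951), ATPases (-1.16), other base genes (-1.28) and lid (-1.288). In the inducible beta genes and the activators it was not the lowest. Its part in the medians of 36 months was not tested. The inducible share of RPKM in liver had medians of 52.2%, 61.2%, 36.8%, 65.4% and 37.4% from the youngest to the oldest age, in which the number of libraries rich in gut markers also varied. The libraries of 6 months stood at 80.1%, 84.7%, 24.4% and 24.1%, none near their median, and those of every other age overlapped them.

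Whether age acted differently on a member in different tissues was tested as the difference between the old against young changes. Between skin and brain 0 of 58 members were called by edgeR's quasi-likelihood test (0.931% of all genes). An unadjusted p under 0.05 was found in 5, all lower in skin, and the share of all genes at that threshold is not given. DESeq2 was not run on the joint fit. Between liver and brain 1 was called (4.70% of all genes), psme4b at -0.60 (adjusted p = 0.00382), which was not called with fish as a replicate block. That block compares tissues within fish, and few fish gave both liver and brain (at 42 months only fish 112). It therefore had less information, and the lost call does not decide whether the difference holds. Without the 9 liver libraries rich in gut markers, 9 members were called between liver and brain, 1 higher and 8 lower, psme4b among them. The share of all genes called in that fit is not given, so this count by itself says little of the members. Between liver and skin 1 was called (2.93% of all genes), PSME4 (4 of 4) at 3.23 (adjusted p = 0.0354), which was also lost with the block and which the filter had not passed in liver alone. Without those 9 libraries 3 were called there, likewise with no share of all genes given, and PSME4 (4 of 4) was not among them. psmd5, higher in old brain and lower in old skin, was not among the called. The changes at single ages were not compared between tissues.

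Other genes of the pathway were counted from lists, to be read beside the share of all genes called: 8.97% higher and 10.6% lower in old brain, 7.81% and 7.32% in old skin, 42.4% higher in skin and 43.1% higher in liver than in brain. Of 11 partners of assembly and of the full particle, old against young called 1 higher in brain (ube3c, 0.20, adjusted p = 0.0164), none in skin and none in liver, and in skin 3 were higher at 24 months (10.7% of all genes), 3 lower at 36 months (7.90%) and 7 lower at 36 than at 24 months (12.9%). Of the 8 genes around nfe2l1, whose product drives proteasome genes in mammals when the protease is inhibited, 2 were higher in old brain, nfe2l1a (1.16) and maff (0.14), and in old skin mafk was higher (1.22) and keap1b lower (-0.53). Of 15 shuttle and unfoldase genes, 2 were higher in old brain (ufd1l 0.22, ubxn7 0.28) and 2 in old skin (ubxn7 0.52, rad23aa 0.34), and of 7 genes of ubiquitin and its activation, 1 was higher in old brain (uba3, 0.18). Class I presentation had all 9 genes higher in skin than in brain (median 1.92) and in liver than in brain (1.87), and 4 of 9 higher in old brain, led by b2m (0.76) and canx (0.17), but 2 lower in old skin, mhc1uba (-2.30) and canx (-0.40). The interferon list had 20 of 21 genes higher in skin than in brain (median 2.59) and 21 of 21 in liver (2.62), and in old brain 6 were higher and 1 lower, with irf9 (0.76) and socs1 (1.43) at the smallest p. In old liver none of these lists had a call. The lists were drawn up with earlier results of these data known, so these counts are a description.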

How the data were processed

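RNA of brain, liver and skin was sequenced by the study with TruSeq libraries, single-end reads of HiSeq instruments and CASAVA (1.8.0 in the submitters' processing notes). The authors mapped reads with TopHat2 (2.0.6) to the genome build Zv9, and counted them per gene with HTSeq or featureCounts (versions not given in the sources used here). The deposited counts are whole reads per gene that the authors did not normalise. The deposited RPKM values divide those counts by library size and gene length, and the length they imply was the same in all libraries to a relative deviation of 6.8e-14. Strand is not marked by this kit, and reads of overlapping genes cannot be separated. Of 32677 rows, 351 without a symbol were identified by gene ID.

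Groups came from the sample labels. A further 2 of 75 libraries, labelled as both skin and liver, were in no group and were left out. Counts were tested with edgeR 4.0.16 (R 4.3.3, limma 3.58.1): filterByExpr by group, TMM, glmQLFit with robust spread and glmQLFTest, 2-sided, with Benjamini-Hochberg adjustment over all genes tested and a threshold of 0.05. Each tissue was fitted alone with age as a factor of 5 levels, and tissues were compared in a fit of all 73 libraries with 15 groups. SE is the log2 change divided by the square root of F. The procedure was tested on simulated counts. RPKM was used to compare levels between genes and, for some members, median levels between tissues, with no test.

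Alternatives were RLE size factors, no low-count filter, DESeq2 1.42.0, subsets of ages, age as a line, marker sums as covariates, liver libraries left out by gut markers, fish as a replicate block, and each library left out in turn. The comparisons of 36 with 24 and 42 with 36 months, the limit of 10000 CPM, the muscle covariate at single ages and the omission of replicate n of every group were chosen after seeing the data. Tissues were often of the same fish, named in the sample titles. Over 43 pairs of libraries from the same fish, the deviations from group means correlated with a median of 0.116 (27 pairs above 0.1), against -0.019 over 312 pairs of other fish, and the block was kept as an alternative because the main design compares groups.

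The members and the gene lists were chosen with earlier results of these data known. Named with values were the 6 members of smallest p in old against young in each tissue, the 3 highest and 3 lowest called members of other comparisons, all inducible beta, activator and inhibitor genes, paralog pairs, and the highest and lowest member per length. Genes of lists are the 2 of smallest p in old against young. Other members drawn or given by library were chosen to stand for their subcomplex after their values were seen. No sequences are printed, since none were used here.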

Additional observations from a re-analysis of the deposited data

Results flagged for a closer look

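Among 90 groups of named members tested for a library far from the others of its group (Dixon's test), 9 had one. Chance gives about 5% for separate groups, but members share libraries and the psme4a rows may be pieces of 1 gene. The 9 therefore cannot be set against that rate. Of the 9, 3 were the psme4a rows in replicate 4 of skin at 24 months: psme4a at 19.75 CPM (others 1.43 to 4.316), PSME4 (3 of 4) at 11.76 (1.073 to 2.65) and PSME4 (4 of 4) at 1.424 (0.0298 to 0.4098). In liver, replicate 1 of 36 months was low for psmd11a at 10.89 CPM (others 16.89 to 19.13) and psmd7 at 13.31 (20.41 to 22.94), and this library held the 183400 CPM of exocrine pancreas genes. psme4b was high in replicate 2 of liver at 12 months, at 33.59 CPM (others 27.32 to 27.74). In brain, psmd9 was high in replicate 1 of 12 months at 15.76 CPM (others 10.15 to 11.46) and in replicate 5 of 36 months at 14.92 (12.3 to 13.03), and psme4a in replicate 4 of 42 months at 13.2 (11.7 to 12.03).

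The old against young change differed between tissues by the test of the difference for psme4b, at -0.60 in liver relative to brain, and for PSME4 (4 of 4), at 3.23 in liver relative to skin. The first was not called with fish as a block, and nor was the second. For the first, few fish gave both liver and brain, so the block had less information.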

How the results depend on the processing

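Counts of called members stayed within 1.5 times of the reported ones under most alternatives, and the others were these. DESeq2 called 4 at 12 months and 11 in old against 12 months of brain, and in liver 3 in old against young, 13 at 24 months and 2 each at 36 and 42 months. Without a low-count filter 1 was called at 12 months of brain and 4 in old against young skin, where a fit of 6, 36 and 42 months alone called 4 and a line over age 0, and the line called 2 in brain. Without the 9 liver libraries rich in gut markers 0 were called at 24 months of liver, and the difference of old against young called 9 between liver and brain and 3 between liver and skin, none of the 3 being the one reported. The median inducible share of liver was 34.6% without them and 46.3% at the planned limit of 2000 CPM, at which no 6 month library was left and the planned fits could not be made. psmd10, 0.26 higher in liver than in skin, stood at -0.13 without the 9 libraries. The share of all genes called is not given for these alternatives, so the counts by themselves say little of the members. The cause of these changes was not tested.

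With fish as a replicate block the counts were 48 (skin against brain), 57 (liver against brain) and 43 (liver against skin), and for the differences 0 (skin and brain), 0 (liver and brain) and 2 (liver and skin), neither the one reported.

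Leaving out 1 library gave 0 to 4, 2 to 4, 7 to 12 and 1 to 4 calls at 12, 24, 36 and 42 months of brain, 1 to 15 in old against 12 months and 3 to 8 in old against young. Liver gave 0 to 8 at 24 months and 0 throughout in its other comparisons. Skin gave 3 to 14, 12 to 28, 16 to 30 and 0 at 12, 24, 36 and 42 months, 38 to 44 and 14 to 34 in the added comparisons and 1 to 7 in old against young. Leaving out replicate n of every group, in place of the planned single libraries, gave 41 to 47, 52 to 57 and 33 to 46 for skin against brain, liver against brain and liver against skin, and 0, 1 to 2 and 0 to 2 for the differences of skin and brain, liver and brain, and liver and skin. Low counts limit the PSME4 (4 of 4) row in every tissue. In brain, the tested inducible beta genes other than psmb10 had low levels and a wide spread between libraries. psmb8, for instance, ran from 1.34 to 8.27 CPM at 6 months.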
